A study of Mus musculus with 2 samples.

Results

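Tags of the RNA-binding protein Mbnl2 that lie far from any annotated gene were examined in WT and Mbnl1 KO mouse quadriceps. The region was defined as the bases of chromosomes 1 to 19 that lie more than 10 kb from every gene of the GENCODE vM1 annotation of mm9, on either strand. It spans 1069.55 Mb of determined sequence in 11038 intervals, which is 44.7% of the autosomes. A tag belonged to it when its midpoint fell there, and single-base tags, in which 1 base fills at least 70% of the reference sequence, were left out. By this rule 157410 of 581447 tags on assembled chromosomes were deep intergenic, 60508 in WT and 96902 in Mbnl1 KO. In HITS-CLIP, UV light links a protein to RNA in contact with it, an RNase trims that RNA, and the short fragments that an antibody pulls down with the protein are sequenced as tags. The labels give both groups as C57BL/6 mice of 15 to 16 weeks, either WT or Mbnl1-/-, with 3 mice merged into 1 deposited table per genotype, while the methods of the study name another background for compound knockouts. Both groups shared the same treatment of powdered, UV-irradiated muscle, RNase A at 38.6 U/ml (high) and 0.0386 U/ml (low), and immunoprecipitation with the Mbnl2 antibody mAb 3B4. The spread between mice cannot be computed from merged tables, so intervals here cover counting error only, compare these libraries and not the genotypes, and no test between genotypes was made.

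Muscleblind-like proteins are zinc finger RNA-binding proteins that regulate alternative splicing, RNA localization and 3′ end processing, and they recognise a GC step flanked by pyrimidines. In muscle Mbnl1 is the main family member, and Mbnl2 is a close paralogue that binds similar sequence. Mammalian genomes far from genes hold transcribed repeats, unannotated transcripts, processed pseudogenes (copies of spliced mRNA put back into the genome), nuclear copies of mitochondrial DNA and fragments of ribosomal RNA genes. A tag of about the length sequenced here can match several of these places equally well, so its assigned position need not be where its RNA was made.

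The following sequences are examples from clusters of intergenic tags with many tags, many reads or skewed ratios, and not all such clusters are printed. They were read from the mm9 genome on the strand of the tags, 5′ to 3′, and capitals mark the MBNL motif in DNA letters, which is TGCT or TGCC with a leading T and CGCT or CGCC with a leading C. The first 5 belong to the clusters with the most tags. The chr10 and chr2 sequences matched mitochondrial sequence. The chr6 and chr1 sequences read as ribosomal by background knowledge only, without a match to an annotated transcript.
chr6:3150855-3151142, plus strand: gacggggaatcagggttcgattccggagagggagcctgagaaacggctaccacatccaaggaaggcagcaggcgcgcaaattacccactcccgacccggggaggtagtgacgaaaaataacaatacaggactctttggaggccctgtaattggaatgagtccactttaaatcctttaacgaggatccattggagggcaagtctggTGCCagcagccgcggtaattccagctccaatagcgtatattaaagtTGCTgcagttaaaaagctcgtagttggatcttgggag
chr6:3151601-3151630, plus strand, the best covered stretch of the largest cluster: ctttgggttccagcgggagtatggttgcaa
chr10:95540160-95540381, minus strand: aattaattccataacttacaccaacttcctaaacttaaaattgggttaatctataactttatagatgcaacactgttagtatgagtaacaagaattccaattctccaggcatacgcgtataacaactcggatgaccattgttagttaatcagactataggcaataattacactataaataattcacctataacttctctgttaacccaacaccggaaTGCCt
chr2:69193591-69193693, minus strand: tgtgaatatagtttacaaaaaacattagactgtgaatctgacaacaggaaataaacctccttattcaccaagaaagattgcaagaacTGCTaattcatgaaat
chr1:133470365-133470447, plus strand: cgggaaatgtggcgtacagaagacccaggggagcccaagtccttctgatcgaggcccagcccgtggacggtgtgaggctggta

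The next 5 come from clusters with many Mbnl1 KO tags. The first 3 are the best covered stretches of intergenic copies of the coding genes Pkm2, Fkbp1a and Gnas. The next is a copy of the non-coding gene 1700020I14Rik, and the last a member of a pyrimidine-rich repeat family with 7 motif tetramers. The Pkm2, Fkbp1a and Gnas clusters had Mbnl1 KO/WT ratios of 1.97 (0.971 to 4.41), 1.35 (0.731 to 2.61) and 2.22 (1.02 to 5.53). The intervals of Pkm2 and Fkbp1a include 1. Copies of an annotated rRNA gene, which had the 3 highest ratios among clusters of at least 20 tags, are not printed.
chr3:43568070-43568099, minus strand, Pkm2 copy: ttaggccagcaaCGCTtgtagTGCTcactc
chr14:77035237-77035266, minus strand, Fkbp1a copy: ataaaagTGCTttaTGCTggcttttctcaa
chr1:184477446-184477475, plus strand, Gnas copy: ccttcagctTGCTtagatgttccaaattta
chr3:129208557-129208640, minus strand, 1700020I14Rik copy: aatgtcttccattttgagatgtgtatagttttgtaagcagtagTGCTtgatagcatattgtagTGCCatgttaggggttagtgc
chr8:47430819-47430892, minus strand, repeat family: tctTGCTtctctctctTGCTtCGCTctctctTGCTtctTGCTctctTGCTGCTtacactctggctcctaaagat

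The next 5 clusters have the lowest Mbnl1 KO/WT ratios among those of at least 20 tags, are all purine-rich and hold no motif tetramer. The linker and adapter sequences of the libraries are not given in the sources used here, so whether such stretches resemble them was not tested. After them stands the cluster whose tags rest on the most reads among those shown, a stretch that occurs once in the genome.
chr12:25485516-25485557, minus strand, lowest ratio: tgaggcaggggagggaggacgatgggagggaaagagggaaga
chr16:27102864-27102894, minus strand, low ratio: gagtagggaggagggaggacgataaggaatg
chr13:38413398-38413453, plus strand, low ratio: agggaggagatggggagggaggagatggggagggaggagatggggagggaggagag
chr17:10157618-10157654, minus strand, low ratio: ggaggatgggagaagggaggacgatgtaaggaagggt
chr6:19093060-19093105, plus strand, low ratio: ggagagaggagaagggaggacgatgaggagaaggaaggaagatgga
chr7:136171189-136171216, plus strand, most reads: aggagtcaaaatcttggtccccaaagga

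Depth differed between the tables, with 343554 tags for 5176203 reads in WT and 476543 tags for 50329234 reads in Mbnl1 KO. On assembled chromosomes 44.0% of WT and 17.0% of Mbnl1 KO tags were single-base tags, and 188766 and 392681 tags remained without them. All 10 skeletal muscle markers had exonic tags in both tables (769 WT and 2601 Mbnl1 KO tags in all), among them the sarcomere gene Ttn with 289 and 904. Of 10 markers of other cell types, 8 had exonic tags in WT and 9 in Mbnl1 KO (145 and 589 tags), most of them in the collagen gene Col1a1 with 122 and 461. The liver marker Alb had 0 in both. Mbnl1 itself had 61 WT and 285 Mbnl1 KO exonic tags, which does not check the genotype because the deleted bases were not located here.

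Deep intergenic tags made up a smaller share of the Mbnl1 KO table than of the WT table. They were 32.1% of WT tags (95% Clopper-Pearson interval 31.8 to 32.3) and 24.7% of Mbnl1 KO tags (24.5 to 24.8). The ratio of these shares, Mbnl1 KO over WT, was 0.770 (interval 0.762 to 0.778), where the tags divided by are those on assembled chromosomes without single-base tags. This direction depends on the scaling. Every ratio with this divisor is 1.4997 times higher, and this one becomes 1.15, when all tags of a table are the divisor. Such a divisor counts single-base tags, which the intergenic count leaves out. With single-base tags kept in both, the ratio was 0.765. Fewer cells and less RNA per cell cannot be told apart in such bulk tissue, and RNA levels were not analysed here. The tags were spread evenly over the strands, with 30253 on the plus and 30255 on the minus strand in WT and 48357 and 48545 in Mbnl1 KO. By reads the intergenic share was lower than by tags, at 15.1% of WT and 8.66% of Mbnl1 KO reads.

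The single-base tags set aside by the rule were frequent in this region. They numbered 57045 in WT, or 48.5% of all tags there against 41.6% elsewhere, and 29147 in Mbnl1 KO, or 23.1% against 14.7%. In WT 94.3% of them were rich in A, and in Mbnl1 KO 73.9%. Within 5 percentage points below the limit lay 2916 WT and 2801 Mbnl1 KO intergenic tags, and within 5 percentage points above it lay 4320 and 3588.

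Tag density showed how the region compares with others that are also outside exons. The deep intergenic region had 149.9 WT and 115 Mbnl1 KO tags per Mb of strand, with counts scaled to tags per 1000000. Deep introns, the parts of protein-coding genes more than 500 nt from any exon, had 241 and 261 on the gene's strand. The 10 kb downstream of genes had 206 and 224 on the gene's strand. The antisense strand of protein-coding genes had 164 and 118. Intergenic density thus lay close to that of the antisense strand and below the sense introns in both tables. The Mbnl1 KO/WT ratio separated the same pairs of regions, at 1.08 in deep introns (1.07 to 1.10), 1.09 downstream of genes (1.06 to 1.11), 0.721 on the antisense strand (0.710 to 0.732) and 0.770 in the deep intergenic region. All 4 ratios move by the same factor under the other scaling, so their order holds, and the intergenic and antisense ratios then exceed 1.

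**Figure D1:**
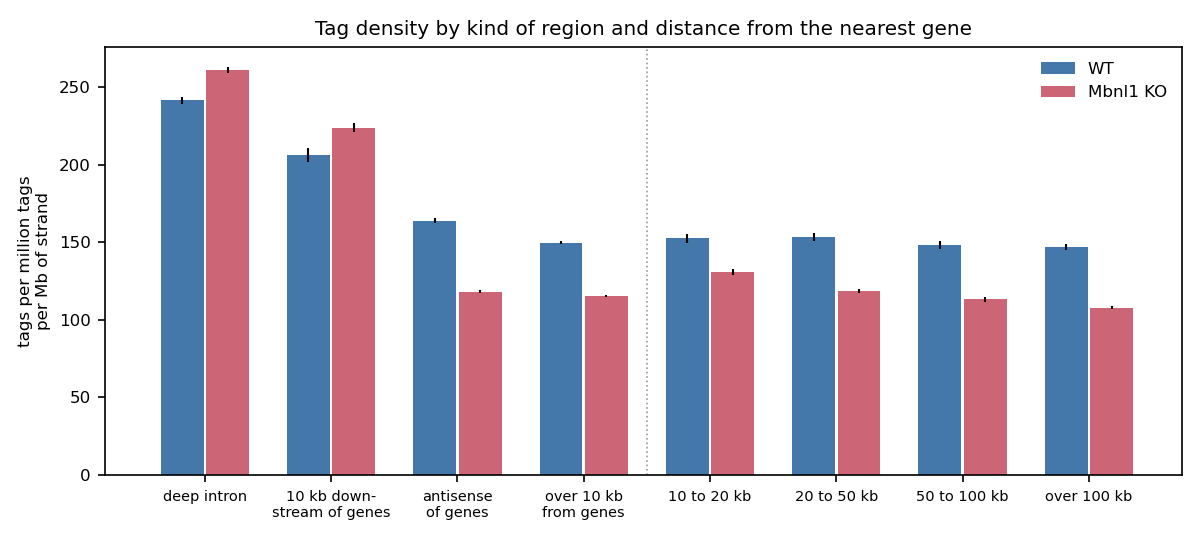
Tags per 1000000 and per Mb of strand (bars, with 95% counting intervals) in WT and Mbnl1 KO, for 4 kinds of region on the left and, right of the dotted line, for the deep intergenic region by distance from the nearest gene. Mbnl1 KO bars are above WT bars in deep introns and downstream of genes, and below them on the antisense strand and at every intergenic distance.

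Within the region, WT density changed little with distance from the nearest gene, while Mbnl1 KO density was lower far from genes. WT tags per Mb of strand, not scaled to the table, were 28.8 at 10 to 20 kb, 28.95 at 20 to 50 kb, 28.03 at 50 to 100 kb and 27.8 beyond 100 kb. Mbnl1 KO tags per Mb were 51.3, 46.6, 44.5 and 42.4 at the same distances. The ratio accordingly went from 0.856 (0.835 to 0.878) at 10 to 20 kb to 0.734 (0.721 to 0.746) beyond 100 kb, intervals that do not overlap. On either side of the 10 kb limit, at 9 to 10 kb there were 30.6 WT and 51.6 Mbnl1 KO tags per Mb of strand, and at 10 to 11 kb 28.2 and 50.4.

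The side and strand relative to the nearest gene changed the density by a few tags per Mb at most. At 10 to 20 kb the strand that continues a gene downstream carried 29.4 WT and 52.2 Mbnl1 KO tags per Mb, and the opposite strand there 27.3 and 51.5. Upstream of the nearest gene the gene's strand carried 29.3 and 52.7, and the opposite strand 29.2 and 48.98. Beyond 100 kb, downstream, the gene's strand had 41.2 and the opposite strand 43.7 Mbnl1 KO tags per Mb. Chromosomes were alike as well. WT density ranged from 26.7 tags per Mb of strand on chromosome 12 to 29.97 on chromosome 6, Mbnl1 KO density from 42.5 on chromosome 7 to 48.6 on chromosome 19, and the ratio from 0.729 (0.695 to 0.765) on chromosome 16 to 0.802 (0.747 to 0.861) on chromosome 19.

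Intergenic tags were mostly short and rested on few reads. Tags of up to 22 nt made up 79.6% of them in WT and 62.8% in Mbnl1 KO, against 69.96% and 45.7% of deep intron tags and 79.7% and 65.99% of antisense tags. A single read stood behind 78.5% of them in WT and 68.3% in Mbnl1 KO, against 65.96% and 51.5% of deep intron tags and 79.1% and 69.0% of antisense tags. The intergenic share of all tags fell with tag length, in WT from 35.5% at 20 nt (35.1 to 35.9) to 24.0% at 25 nt and 15.9% at 31 nt (15.3 to 16.6), and in Mbnl1 KO from 33.04% (32.7 to 33.4) to 20.5% and 12.5% (12.3 to 12.7). The fall was not smooth, since tags of 30 nt had a share of 34.1% in WT (744 tags) and 25.6% in Mbnl1 KO (1874 tags). At 27, 28 and 29 nt the share was higher in Mbnl1 KO, with 15.7% and 17.9%, 17.6% and 18.1%, and 9.09% (6.34 to 12.5) and 21.4% (19.7 to 23.2) in WT and Mbnl1 KO, and at 29 nt the intervals do not overlap. It also fell with reads. Among tags of 1 read 35.5% of WT and 30.6% of Mbnl1 KO tags were intergenic, among those of 2 to 9 reads 28.7% and 22.9%, among those of 10 to 99 reads 16.0% and 11.98%, and among those of 100 or more reads 13.3% and 8.31%. In each read class the intergenic share was lower in Mbnl1 KO than in WT, with intervals that do not overlap. The tables differ in depth, so a read class need not be the same slice of each. With the divisor of the other ratios, the Mbnl1 KO/WT ratio of intergenic tags was 0.670, 1.11, 1.01 and 1.80 in the same classes. Over all tags of the genome it was 0.776, 1.39, 1.35 and 2.89. By length the intergenic ratio was 0.608 up to 22 nt, 1.19 at 23 to 29 nt and 2.20 at 30 nt or more. Over all tags by length it was 0.665, 1.43 and 2.96.

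**Figure D2:**
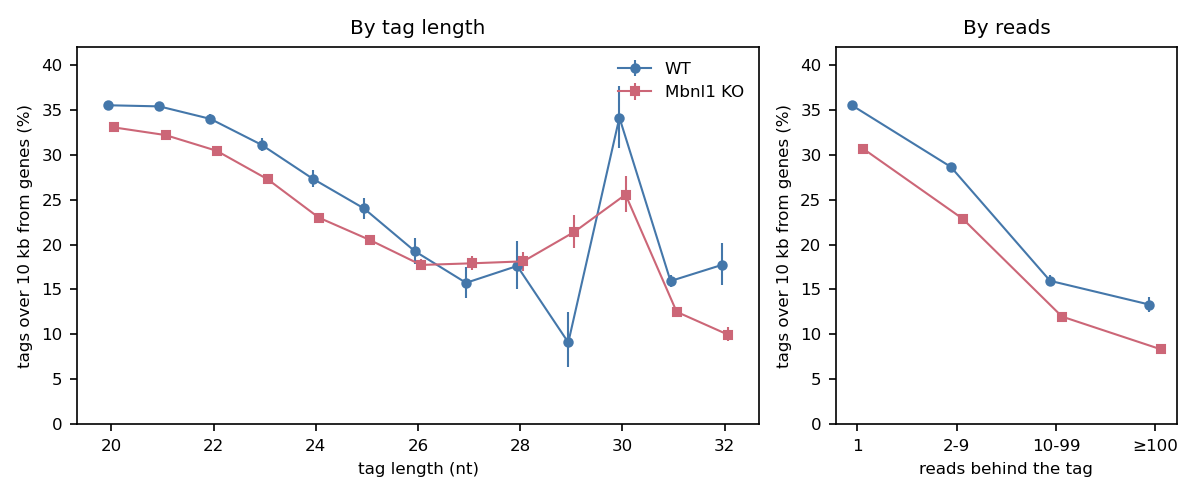
Share of tags that lie over 10 kb from genes (y axis, percent, with 95% Clopper-Pearson intervals) by tag length in nt on the left and by the number of reads behind a tag on the right, in WT and Mbnl1 KO. At 20 nt the shares are 35.5% and 33.04%, at 100 or more reads they are 13.3% and 8.31%, and Mbnl1 KO lies below WT in all 4 read classes but above it at 27 to 29 nt.

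The number of places in the genome that a tag could have come from divided the intergenic tags further. Copies were counted as exact occurrences of the central 20 nt of a tag on both strands of mm9. In WT 74.0% of intergenic tags were single-copy, in Mbnl1 KO 59.0%, while 5.42% and 16.9% had over 100 copies. The Mbnl1 KO/WT ratio rose with copies, from 0.613 (0.606 to 0.621) for 1 copy and 0.813 (0.791 to 0.835) for 2 to 10 copies to 1.18 (1.13 to 1.22) for 11 to 100 and 2.40 (2.31 to 2.49) for over 100 copies. Over all tags of the genome the ratio of the same copy classes was 0.898, 1.04, 1.32 and 2.29, so the trend was not confined to the intergenic region, and the intergenic ratio was the lower one in all classes but the last. Among single-copy tags of at least 2 reads, 21.5% of WT (9024 of 42034) and 13.1% of Mbnl1 KO tags (16368 of 124706) were intergenic.

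Exact matches to annotated RNA were looked for with the same central 20 nt. No match was found for 92.4% of WT and 80.2% of Mbnl1 KO intergenic tags. Spliced exons of protein-coding genes, read on the tag's strand, were matched by 3232 WT tags (5.34%) and 13822 Mbnl1 KO tags (14.3%). Exons were matched on the opposite strand only by 813 (1.34%) and 2988 tags (3.08%). Tags that match exons on both strands are counted with the sense matches, so these classes do not mirror each other. The mitochondrial genome was matched by 65 WT and 263 Mbnl1 KO tags and annotated rRNA genes by 13 and 97. The ratio was 2.06 (1.98 to 2.14) for sense exon matches, 1.77 (1.63 to 1.91) for opposite strand matches and 0.668 (0.661 to 0.676) for tags without a match. For all tags of the genome with a sense exon match it was 1.95.

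**Figure D3:**
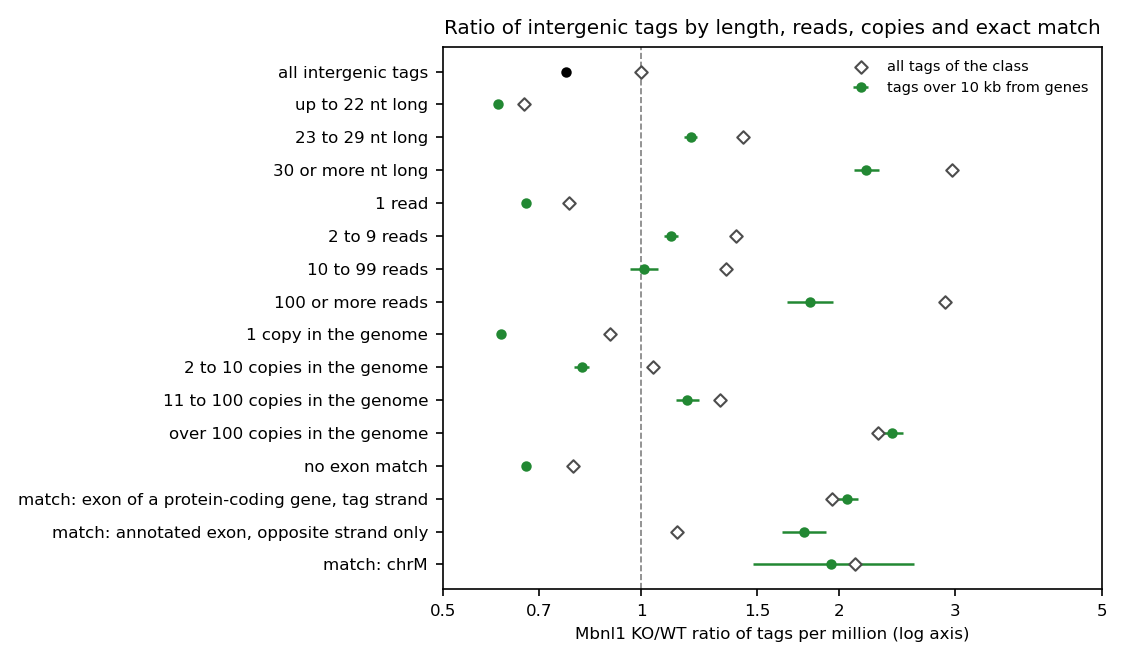
Mbnl1 KO/WT ratio of tags per 1000000 (log axis) for intergenic tags by length, reads, copies in the genome and exact match to coding exons, to the opposite strand of exons, to the mitochondrial genome or to none (points with 95% counting intervals), beside the ratio of all tags of the same class (open diamonds). The points drawn run from 0.608 for tags of up to 22 nt to 2.40 for tags with over 100 copies, and lie left of the diamonds except for over 100 copies, sense exon matches and opposite strand matches.

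Tags that matched the exons of 1 gene only and had 2 to 20 copies numbered 656 in WT and 1882 in Mbnl1 KO (ratio 1.38, 1.26 to 1.51). They matched 778 genes, and a match of sequence does not show where the RNA was made. Pkm2, a pyruvate kinase of glycolysis, led with 48 WT and 165 Mbnl1 KO intergenic tags at 27 sites on 9 chromosomes (ratio 1.65, 1.19 to 2.33). Over the exons of Pkm2 itself lay 44 WT and 162 Mbnl1 KO tags (ratio 1.77, 1.26 to 2.53). Tags over a gene's own exons, here and below, were counted by midpoint without a limit on copies or matches. They are therefore not a like set to the intergenic tags. Fkbp1a, a small prolyl isomerase that binds the ryanodine receptor, had 18 and 54 intergenic tags beside 21 and 90 over its own exons. Gnas, which encodes a stimulatory G protein subunit, had 7 and 34 at 1 site beside 44 and 239. The predicted gene Gm7292 had 14 and 24 beside 5 and 10. Actr2, of the actin-nucleating Arp complex, had 9 and 27, and Skp1a, of an SCF ubiquitin ligase, also 9 and 27. Atp6v1g1, of the vacuolar proton pump, had 7 and 19, and the small GTPase Arf1 had 5 and 20. Morf4l1, a chromatin protein, had 2 WT and 30 Mbnl1 KO tags (ratio 7.21, 1.83 to 62.3), and the translation factor Eef1a1 2 and 22 (5.29, 1.30 to 46.4). Odc1, the first enzyme of polyamine synthesis, had 13 and 12 tags (0.444, 0.185 to 1.05), an interval that includes 1. The genes named here were taken from those with the most intergenic tags after the values were seen.

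Overlapping intergenic tags of one strand, pooled over both tables, formed 132023 clusters. Of these, 118708 held 1 tag, 9323 held 2, and 253 held at least 10. Clusters of 1 tag took up 77.9% of WT and 73.9% of Mbnl1 KO intergenic tags, whereas the 253 larger ones held 1686 WT and 3795 Mbnl1 KO tags (ratio 1.08, 1.02 to 1.15). The pooled value joins unlike classes, since the ratio was 0.789 (0.726 to 0.859) in the 185 clusters of 10 to 19 tags, 1.29 (1.15 to 1.45) in the 54 of 20 to 49 tags and 1.54 (1.37 to 1.73) in the 14 of at least 50 tags. Their median width was 39 nt, against 61 nt for all 2369 clusters of at least 10 tags in the genome. In 33 of the 253 clusters (13.0%) the interval of the ratio lay above 1, where the share over all clusters of the genome was 21.6%. In 38 (15.0%) it lay below 1, where the share over the genome was 4.81%. The median ratio was 1.27 over the intergenic clusters and 1.92 over all clusters of the genome. WT had 0 tags in 15 of the 253 and Mbnl1 KO in 4, and a count of 0 allows up to 3 tags. Scaled to all tags, 60 of the 253 intervals lay above 1 and 24 below it, beside 40.2% and 3.29% of the 2369.

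The clusters split by whether their sequence occurs elsewhere. In 88 clusters the median tag was single-copy, and these held 613 WT and 629 Mbnl1 KO tags (ratio 0.493, 0.441 to 0.552). Of their intervals 6 lay above 1 (6.82%) and 28 below (31.8%). The other 165 held 1073 and 3166 tags (ratio 1.42, 1.32 to 1.52), with 27 above (16.4%) and 10 below (6.06%). Over all 2369 clusters of the genome these shares were 21.6% and 4.81%, but they were not split by copies there. Many clusters were copies of each other. Clusters that shared a run of 16 nt formed 159 families, of which 121 were a single cluster and 38 joined 132 clusters. Clusters were aligned to annotated transcripts and the mitochondrial genome with at least 90% identity over 80% of the cluster. In this way 70 matched exons of protein-coding genes (ratio 1.41, 1.23 to 1.61), 9 exons of other genes and 12 the opposite strand of exons. A further 5 matched annotated nuclear rRNA genes, and 1 matched the mitochondrial genome but no single annotated transcript at these limits. Of the 9, 5 matched genes of the mitochondrial genome, mt-Rnr2 in 3 and the tRNA genes mt-Tg and mt-Tn in 1 each, so 6 clusters held mitochondrial sequence. Of the 70, 15 belonged to a repeat family led by chr8:59451592-59451654, matched A430033K04Rik or Tmem194 and had from 5 to 31458 copies by their median tag, with 22 WT and 175 Mbnl1 KO tags (ratio 3.82, 2.45 to 6.26), while the other 55 had 269 and 676 tags (1.21, 1.05 to 1.40). The remaining 156 clusters, with 1265 WT and 2370 Mbnl1 KO tags, matched none (ratio 0.901, 0.841 to 0.965).

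**Figure D4:**
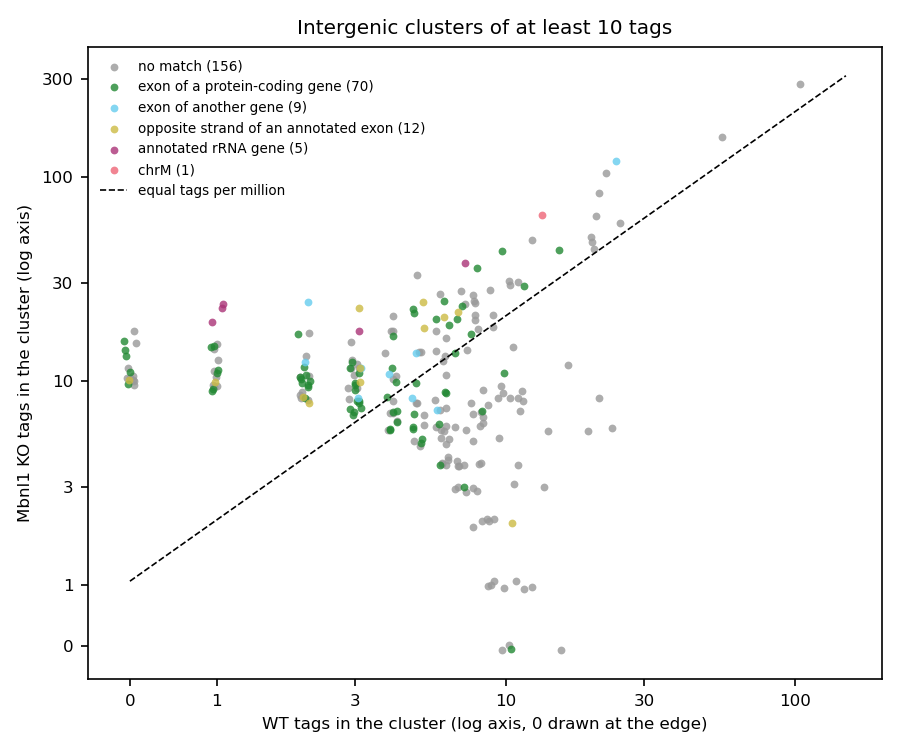
WT tags (x axis) and Mbnl1 KO tags (y axis), both on log axes, in each of the 253 intergenic clusters of at least 10 tags, coloured by the annotated RNA their sequence matched, with a small random shift to separate points. The dashed line marks equal tags per 1000000, and clusters without a match make up most points below it while rRNA gene copies lie above it.

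The largest cluster lay at chr6:3151150-3151672 on the plus strand, 170585 bp from Samd9l, and held 104 WT and 294 Mbnl1 KO tags (ratio 1.36, 1.08 to 1.72, or 1.09 for tags of at least 2 reads and 1.07 with each 5′ end counted once). The next lay beside it at chr6:3150855-3151142 with 53 and 159 tags (1.44, 1.05 to 2.01), though its ratio was 0.987 for tags of at least 2 reads. In ratios for such tags, or with each 5′ end counted once, the divisor was limited in the same way, in this paragraph and below. Such ratios therefore change 2 choices at once. The sequence printed above for the chr6:3150855 cluster holds a stretch known from the RNA of the small ribosomal subunit. This naming is background knowledge, since no reference of the large nuclear rRNAs was used here, and both clusters matched no annotated transcript. Clusters at chr3:5860587-5860826 (23 and 107 tags, ratio 2.24, 1.42 to 3.68, or 1.48 with each 5′ end counted once), chr1:56839062-56839229 (20 and 80, 1.92, 1.17 to 3.31), chr1:133470365-133470447 (21 and 65, 1.49, 0.898 to 2.56) and chr8:15519878-15520123 (25 and 56, 1.08, 0.661 to 1.80) read, by the same knowledge, as fragments of small or large subunit rRNA. The last 2 of these ratios turned below 1 under other ways of counting, each with its own divisor. They were 0.942 when each 5′ end was counted once at chr1:133470365 and 0.695 for tags of at least 2 reads at chr8:15519878. The chr8 cluster belonged to a family of 9 clusters on 8 chromosomes with 111 WT and 248 Mbnl1 KO tags (1.07, 0.855 to 1.36). Both remaining clusters of the 10 largest lay on chr18, at 68851729 to 68851961 (19 and 50 tags) and 54858557 to 54858601 (20 and 47), and shared sequence with the chr8 and the chr3 cluster. Among them the cluster farthest from a gene lay 284348 bp from Pxmp3.

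Mitochondrial sequence accounted for a further pair. The cluster at chr10:95540160-95540381, on the minus strand 32008 bp downstream of Eea1, held 25 WT and 121 Mbnl1 KO tags (ratio 2.33, 1.503 to 3.74) and matched the large mitochondrial rRNA gene mt-Rnr2 with 98.2% identity over 222 nt. The cluster at chr2:69193591-69193693, on the minus strand 12920 bp upstream of Abcb11, held 14 and 66 tags (2.27, 1.26 to 4.37) and matched the mitochondrial genome with 100% identity over 99 nt. Over the genome, tags whose central 20 nt match the mitochondrial genome had a ratio of 2.11, beside 1.95 (1.48 to 2.59) for the intergenic ones.

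Among the 68 clusters of at least 20 tags, the 5 highest ratios all belonged to sequence present in several copies. Of these, 3 were copies of an annotated rRNA gene with 1 WT tag each, at chr10:27672192-27672232 (24 Mbnl1 KO tags, ratio 11.5, 1.88 to 474), chr4:63972996-63973037 (24 tags, 11.5, 1.88 to 474) and chr14:109830162-109830202 (20 tags, 9.61, 1.54 to 398). When each 5′ end was counted once, these ratios were 4.35, 4.89 and 4.35. With 1 WT tag each of these ratios is known only to within those intervals, while their family of 5 clusters on 4 chromosomes had 13 WT and 122 Mbnl1 KO tags together (4.51, 2.54 to 8.71). The cluster at chr3:129208557-129208640, 26664 bp upstream of Elovl6, held 2 and 25 tags (6.01, 1.498 to 52.3) and matched the non-coding gene 1700020I14Rik with 100% identity, with a ratio of 3.81 when each 5′ end was counted once. The fifth, at chr8:47430819-47430892 and 50794 bp upstream of Helt, held 3 and 22 tags (3.53, 1.06 to 18.4), and its ratio was 1.71 for tags of at least 2 reads. It belonged to a family of 11 clusters on 5 chromosomes, rich in the motif, with 62 WT and 241 Mbnl1 KO tags (1.87, 1.41 to 2.51).

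The 5 lowest ratios among the clusters of at least 20 tags belonged to purine-rich stretches, which could not be compared with the linkers and adapters of the libraries. The cluster at chr12:25485516-25485557 held 22 WT and 6 Mbnl1 KO tags (ratio 0.131, 0.0435 to 0.333), that at chr16:27102864-27102894 held 20 and 6 (0.144, 0.0474 to 0.372), and that at chr13:38413398-38413453, 23542 bp upstream of Bmp6, held 20 and 8 (0.192, 0.0733 to 0.456). At chr17:10157618-10157654, 241682 bp downstream of Qk, there were 14 and 6 tags (0.206, 0.0649 to 0.571), and at chr6:19093060-19093105 there were 16 and 12 (0.361, 0.156 to 0.812), a ratio shared by the cluster at chr3:131644096-131644123 with 12 and 9 tags. Clusters of 10 to 19 tags reached lower ratios, down to 15 WT and 0 Mbnl1 KO tags at chr6:49632705-49632733. Tags of 2 reads or more gave 0.0779 at the chr16 and 0.0850 at the chr13 cluster, and with each 5′ end counted once the ratio was 0.317 at the chr13 and 0.181 at the chr6 cluster at 19093060. Of the 5, all but the chr13 cluster were single-copy by their median tag. Across all 38 clusters with an interval below 1, the median purine content was 86.6% and 29 held AGGGAGGA, against 46.2% and 2 of the 33 clusters with an interval above 1. A motif tetramer was present in 4 of the 38 and in 28 of the 33. The 182 clusters with an interval that includes 1 lay between, with a median purine content of 50%, AGGGAGGA in 13 and a motif tetramer in 108. These counts were not corrected for the width of the clusters. The purine content and these letters were looked at after the values were seen.

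Of the single-copy clusters of at least 20 tags, 3 were chosen by their reads after the values were seen. At chr7:136171189-136171216, plus strand, 10 WT and 28 Mbnl1 KO tags (ratio 1.35, 0.635 to 3.11) stood for 3452 and 159921 reads, which is 0.473% of WT and 3.72% of Mbnl1 KO intergenic reads. Its 28 nt hold no motif tetramer, match no annotated transcript, and lie 201208 bp from the nearest annotated gene. The single-copy cluster at chr10:83514089-83514115 held 6 and 18 tags from 2335 and 4062 reads, and that at chr4:39557094-39557118 held 4 and 17 tags from 1088 and 6417 reads. In both, as at chr7, the interval of the tag ratio included 1.

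The MBNL motif was more frequent in intergenic tags than in the region they lie in. A motif tetramer stood in the central 20 nt of 27.7% of WT tags (27.4 to 28.1) and 38.0% of Mbnl1 KO tags (37.7 to 38.3), beside 14.4% of all 20 nt windows of the region on both strands. Deep introns had 38.3% and 45.4% beside 16.7% of their windows, the 10 kb downstream of genes 34.5% and 44.3% beside 16.1%, and the antisense strand 27.0% and 37.7% beside 16.0%. Intergenic tags lay near antisense tags in this measure too, and both had a smaller share than intron tags in either table. Single-copy tags kept most of the excess, with 25.7% (25.3 to 26.1) in WT and 32.4% (32.1 to 32.8) in Mbnl1 KO. Among single-copy intergenic tags TGCT was the most enriched of all tetramers in Mbnl1 KO, at 3.298 times its frequency in the region, and ranked 6 in WT at 2.56 times. TGCC was at 1.85 and 1.38 times. The CG-containing CGCT was at 1.70 and 1.17 times, and CGCC at 1.19 and 0.644 times. The motif share of Mbnl1 KO tags was 35.4% in clusters of 1 tag and 48.4% in those of 3 to 4 tags, was 43.1% in those of 10 to 19 tags, reached 70.5% (67.7 to 73.1) in those of 20 to 49 tags, and was 28.3% (25.8 to 30.9) in the 14 clusters of at least 50 tags, most of them named above as ribosomal or mitochondrial. In WT it was 26.9%, 30.8%, 19.4%, 53.4% and 32.2% in the same classes, so that neither table followed cluster size in one direction.

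**Figure D5:**
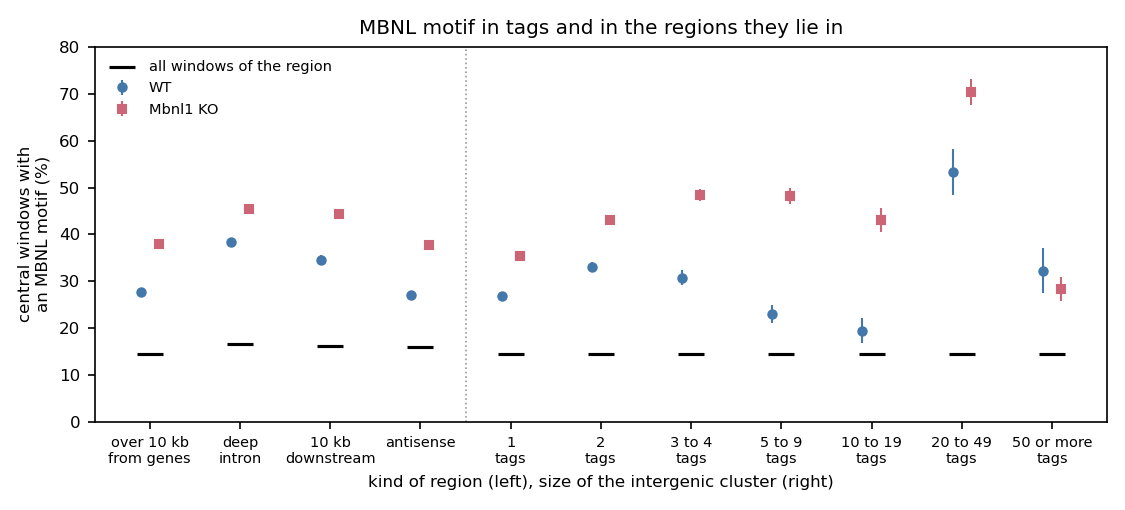
Share of tags whose central 20 nt hold an MBNL motif tetramer (y axis, percent, with 95% Clopper-Pearson intervals) in WT and Mbnl1 KO, by kind of region on the left and by the size of the intergenic cluster on the right, with horizontal marks for all windows of the region. All points lie above their mark, and Mbnl1 KO lies above WT in every class but that of 50 or more tags.

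The longer words that filled intergenic tags differed between the tables, and none was compared with linker or adapter sequence. In WT, after the all-A word, the most frequent 8-mer was AGGGAGGA, in 3.16% of tags (3.02 to 3.301) against 0.490% (0.446 to 0.536) in Mbnl1 KO and 0.0577% of all windows. Related purine words such as GGAGGAGG (2.29% and 0.362%) and GAGGAGGA (2.06% and 0.402%) followed it. The word GGAGGACG, present in 4 of the 5 low-ratio sequences above, was in 0.804% of WT and 0.203% of Mbnl1 KO tags and in 0.00346% of windows. In Mbnl1 KO the most frequent word was TCTGCCTC, in 3.36% of tags against 0.923% in WT. CTCTGCCT and CTGCCTCT followed, the latter at 3.29% and 0.906% beside 0.0899% of windows, but in single-copy tags it was at 0.287% and 0.217%. The word TGCTTGCT, which holds the motif in tandem, was in 1.46% (1.38 to 1.54) of Mbnl1 KO and 0.908% (0.834 to 0.987) of WT tags, and in 0.772% and 0.475% of single-copy ones, beside 0.0499% of windows. CTGCTGCT, a stretch of the CTG repeat that MBNL proteins are known to bind as RNA, was in 1.37% and 0.727%, and in 0.523% (0.466 to 0.586) and 0.413% (0.356 to 0.477) of single-copy tags, whose intervals overlap. These words were not particular to intergenic tags, since AGGGAGGA stood in 2.88% of WT and 0.322% of Mbnl1 KO tags elsewhere in the genome, and CTGCCTCT in 0.879% and 2.34%. By base composition, intergenic WT tags of 30 nt or more were 44.4% A, against 22.3% in Mbnl1 KO.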

How the data were processed

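Mbnl2 HITS-CLIP tags of WT and Mbnl1 KO quadriceps were analysed, 1 table of 3 merged mice per genotype. After a quality filter, the authors mapped reads to mm9 by BWA (version not given in the sources used here), dropped short ones and likely PCR duplicates, and pooled the 3 mice. The deposited count beside a tag gives the reads behind it and was not normalized. Reads without molecular identifiers are not independent molecules, so tags were counted instead.

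Tags were assigned by midpoint with Python 3.11.15, numpy 2.4.6 and pandas 2.3.3, and divided by the tags on assembled chromosomes that were not single-base tags. Ratios have Clopper-Pearson intervals at 95% (scipy 1.17.1). Clusters of at least 10 tags were aligned with blastn 2.17.0 to GENCODE vM1 transcripts and the mitochondrial genome. Region membership, clustering and intervals were tested on simulated tags. Clusters named by rule are the 10 with the most tags and, among those of at least 20 tags, 5 at either end of the ratio. Other clusters named or printed were chosen by their values, their matches or their family. The members and lists were chosen with earlier results of these data known. The genome used carries no repeat marks, so repeats were judged by copies. RNase levels are not told apart in the tables. A few items are not reported here.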

Additional observations from a re-analysis of the deposited data

How the results depend on the processing

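The intergenic share was lower in Mbnl1 KO than in WT under all 10 alternatives tried for it. It was 36.2% of WT and 28.3% of Mbnl1 KO tags at a 5 kb distance, 18.6% and 13.8% at 50 kb, 34.8% and 26.7% with single-base tags kept, 31.6% and 24.1% with tags at least 60% one base left out, 23.6% and 17.4% for tags of at least 2 reads, 32.8% and 27.3% with identical positions collapsed, 32.9% and 27.8% with the same 5′ end collapsed, 31.4% and 21.5% for single-copy tags, and 24.5% in Mbnl1 KO without the 10 largest clusters. For alternatives that drop tags, the divisor of the ratio holds only the tags kept, as in the shares above. With the divisor of the sections above, it was 0.613 for single-copy tags, and 1.11, 1.01 and 1.80 for 2 to 9, 10 to 99 and 100 or more reads. The ratio of shares was 0.781 at 5 kb, 0.744 at 50 kb and 0.736 for at least 2 reads. It was 0.833 with identical positions collapsed, 0.845 with the same 5′ end collapsed and 0.683 for single-copy tags. Scaled outside chromosome M and the 100 largest clusters of the genome it was 0.782. It turned to 1.15 when scaled to all tags, which differ in their single-base share (44.0% and 17.0%), and to 1.60 with no scaling, which leaves in the larger number of Mbnl1 KO tags.

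The 253 clusters became 1535 with single-base tags kept, 74 for tags of at least 2 reads, 87 for single-copy tags, 1065 and 68 at minimums of 5 and 20 tags, and 143 at 50 kb. Scaling to all tags, chosen after seeing the data, gave 60 intervals above 1 in place of 33 and 24 below 1 in place of 38. Among the named clusters, ratios turned below 1 for tags of at least 2 reads at chr6:3150855 (0.987) and chr8:15519878 (0.695). With the same 5′ end collapsed they did so at chr1:133470365 (0.942) and chr8:15519878 (0.979). In each case the divisor was limited to the tags kept as well, so the way of counting was not the only change. At chr12:25485516 no Mbnl1 KO tag had 2 reads or more. The cause of these changes was not tested. No paired analysis was possible because the 3 mice of a genotype are merged into 1 table, so no mouse could be left out either.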

Other observations

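Some tags lay in runs of undetermined bases (N) of mm9, where no sequence is known. In the deep intergenic region, 107 WT and 61 Mbnl1 KO tags lay wholly in such runs, over 150.3 Mb of strand. That is 0.712 WT and 0.406 Mbnl1 KO tags per Mb of strand, beside 28.2 and 45.3 over determined bases. Of these tags 92 in WT and 35 in Mbnl1 KO were 20 nt long, none was longer than 23 nt, and 84 and 42 rested on 1 read. The highest number of reads behind one of them was 1023 in WT and 33 in Mbnl1 KO. With the divisor of the other ratios, their Mbnl1 KO/WT ratio was 0.274 (95% counting interval 0.197 to 0.379), lower than the 0.770 of all deep intergenic tags, of which they were 0.177% in WT and 0.0630% in Mbnl1 KO. What placed tags in these runs was not tested.

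On chromosome X, which the region leaves out, 3609 WT and 6135 Mbnl1 KO tags lay more than 10 kb from genes (ratio 0.817, 0.784 to 0.852). Sequence not placed on an assembled chromosome held 6200 WT and 3628 Mbnl1 KO tags, single-base tags included.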
